A study of Mus musculus with 6 samples.

Results

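The lysosome is the acidic compartment in which cells break down proteins, sugars, sulfated chains and lipids, and the vacuolar proton pump is the rotary enzyme that acidifies it. The pump has a membrane sector, V0, through which protons pass, and a peripheral sector, V1, which hydrolyses ATP. Melanosomes, the pigment granules of melanocytes, are related organelles, and cathepsins of tumor cells can be secreted and cleave proteins of the extracellular matrix. Here 44 mouse genes of this compartment were followed in a melanoma model of lymph node metastasis, out of 23951 genes in the expression table. They were taken by gene symbol from a list drawn up with earlier results of these data known: 10 acid proteases, 7 membrane and sterol transport proteins, 9 glycosidases, 2 sulfatases, 5 lipid hydrolases and saposins, 5 proton pump genes of the V0 sector and its accessory protein, and 6 of the V1 sector.

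RNA sequencing was performed in cultures of 3 untreated mouse melanoma cell lines, with 2 libraries per line. B16-F1 is the parental line of low metastatic potential, B16-F1R2 is a variant derived from a lymph node metastasis, and B16-F1R2L is, by its label, a line from a lung metastasis that itself came from a lymph node metastasis. B16-F1 was bought from a cell repository and B16-F1R2 came from another laboratory, so origin and line cannot be told apart, and the origin of B16-F1R2L is not given in the sources used here. Each line is 1 model, and no source states whether its 2 libraries were grown apart, so the p-values measure the spread between libraries, which may be technical. The paper gives high-glucose medium with fetal bovine serum for its melanoma lines, and its text does not name B16-F1R2L.

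Levels are given in FPKM, reads scaled by the length of the gene and by the depth of the library, as the authors deposited them. Differences are log2 fold changes of FPKM + 0.1 with their standard error (SE), tested with limma over all genes that reached 1 FPKM in 2 or more libraries, and called at a Benjamini-Hochberg adjusted p under 0.05. Of the 44 genes, 42 passed this filter. Cathepsin F (Ctsf) stood at 0.631 and 0.658 FPKM in B16-F1, at 0.619 and 0.892 in B16-F1R2 and at 0.943 and 0.971 in B16-F1R2L. Cathepsin S (Ctss), a protease of antigen-presenting cells, was listed at 0 in 4 libraries and at 0.0594 and 0.0544 FPKM in 1 library each of B16-F1R2 and B16-F1R2L. These 2 genes were too low to test.

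The cultures carried the RNA of melanocytic cells and little of other cell types. All 7 melanocyte markers were far above 1 FPKM in every library, and macrophage markers such as Ptprc, Itgam and Fcgr1 were listed at 0 in all 6. Of 10 macrophage markers 1 reached 1 FPKM in any library (Lyz2, at most 2.05 FPKM). Summed over the 10, their level was 0.616 and 1.07 FPKM in B16-F1, at 1.05 and 1.40 in B16-F1R2 and at 2.36 and 1.88 in B16-F1R2L. The 5 lymphocyte and the 5 fibroblast markers summed to at most 0.078 and 0.170 FPKM. Of 5 endothelial markers Cdh5, Kdr and Tek were listed at 0 throughout, and Pecam1 was listed at 0 in B16-F1 and stood at 0.752 to 1.26 FPKM in the metastatic lines. The fifth, Prox1, fell from 1.66 and 1.63 FPKM to 0.790 and 0.969 in B16-F1R2 and to 1.16 and 1.13 in B16-F1R2L. Of 5 osteoclast markers Acp5 was listed at 0 in B16-F1 and stood at 1.05 to 1.83 FPKM in the metastatic lines, Calcr was listed at 0 throughout, and Ocstamp stood at 0 in B16-F1 and at most at 0.343 FPKM. Dcstamp and Oscar had their highest levels in B16-F1, at 0.140 and 0.0949 FPKM. The summed melanocyte markers themselves were lower in those lines, at 14970 and 15010 FPKM in B16-F1, at 8125 and 7909 in B16-F1R2 and at 8933 and 8924 in B16-F1R2L. In bulk RNA fewer cells of a type and less RNA per cell cannot be told apart.

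Most of the lysosomal genes were lower in both metastatic lines than in B16-F1. In B16-F1R2, 30 of the 42 tested genes fell, against 27.2% of all 11379 tested genes, 2 rose, against 28.2% of all, and 10 were not called. The median log2 fold change over the 42 was -0.50, beside 0.005 over all tested genes. In B16-F1R2L, 28 fell, against 27.1% of all, and 4 rose, against 29.5% of all, with a median of -0.34 beside 0.02. Both comparisons share the B16-F1 libraries. Summed FPKM of the 44 genes stood at 6912 and 7009 in B16-F1, at 4419 and 4400 in B16-F1R2 and at 4659 and 4646 in B16-F1R2L, so the lowest B16-F1 library lay above all libraries of the other lines. Melanocyte markers fell in the same libraries (6 of 7 called lower in each line), and their part in these counts was not tested.

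**Figure D1:**
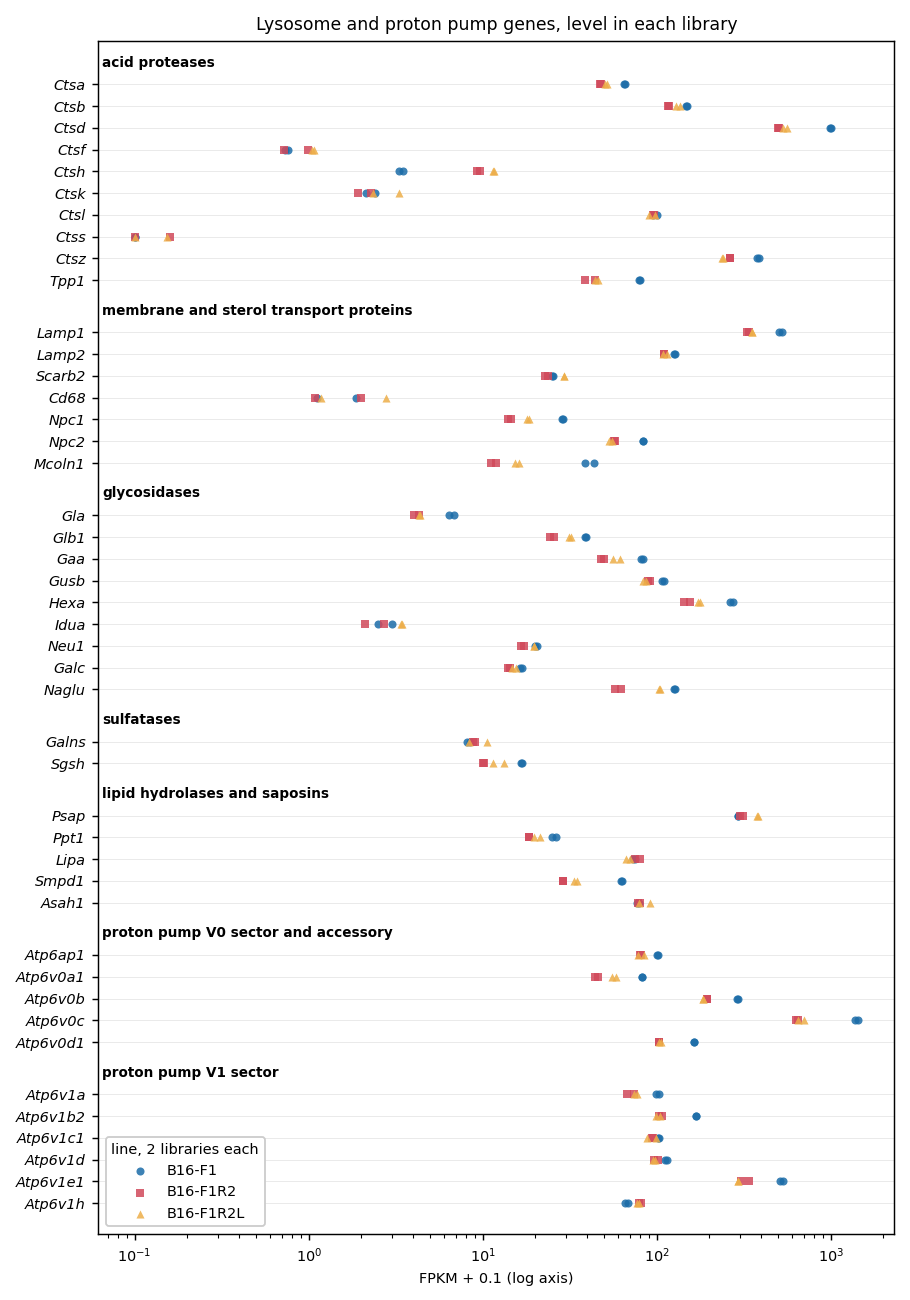
Level of each of the 44 genes in each of the 6 libraries, as FPKM + 0.1 on a log axis, grouped by role, with circles for B16-F1, squares for B16-F1R2 and triangles for B16-F1R2L. Levels run from 0 FPKM (Ctss) to 1441 FPKM (Atp6v0c), and the circles lie to the right of the other symbols for most genes, with Ctsh and Atp6v1h among the exceptions.

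Many lysosomal genes carry a short palindrome near their start, the E-box, which MITF, TFEB and TFE3 bind, and a longer form of it is known as the CLEAR element. The promoters of 36 of the 44 genes were in the RefSeq promoter table (build GRCm38.p6), and 250 bases before each start were searched for the letters CACGTG (E-box), TCACGTGA (CLEAR, which contains the E-box) and TCATGTG (the M-box form), on both strands. An E-box was found in 13 of the 36 genes (36.1%), beside 6.86% of 27025 genes in the table. The CLEAR form was found in 5 of them (13.9%, beside 0.907%), and these were Ctsa, Ctsd, Mcoln1, Gla and Atp6v1a. An M-box match was found in 3 (8.33%, beside 3.72%). A match is a run of letters, and binding was not measured.

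The stretches below are examples, shown for the CLEAR form (Mcoln1, Ctsd, Gla and Atp6v1a), for a promoter with several matches (Gla, Atp6v0b and Lamp1) or for a large change (Naglu). Each is written 5′ to 3′ on the strand of its gene, in GRCm38.p6, with the E-box or CLEAR letters in capitals. Mcoln1, chr8:3500462-3500491 on the plus strand, Ctsd, chr7:142387908-142387937 on the minus strand, Naglu, chr11:101070009-101070038 on the plus strand, and Gla, chrX:134601182-134601211 on the minus strand, are given as 30 bases around the motif. Part of the 100 bases around these motifs also occurs in a transcript, of Hnrnph2 for Gla and of the gene itself for Mcoln1, Ctsd and Naglu. Which gene the Gla sites serve was not tested. The other stretches are 100 bases of Atp6v1a, chr16:44139338-44139437 on the minus strand, of Atp6v0b, chr4:117887330-117887429 on the minus strand, and of Lamp1, chr8:13159031-13159130 on the plus strand.
Mcoln1: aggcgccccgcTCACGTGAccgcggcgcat
Ctsd: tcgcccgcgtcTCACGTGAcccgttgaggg
Naglu: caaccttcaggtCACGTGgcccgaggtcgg
Gla: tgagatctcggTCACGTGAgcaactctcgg
Atp6v1a: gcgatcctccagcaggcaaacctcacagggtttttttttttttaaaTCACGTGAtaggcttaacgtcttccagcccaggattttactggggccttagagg
Atp6v0b: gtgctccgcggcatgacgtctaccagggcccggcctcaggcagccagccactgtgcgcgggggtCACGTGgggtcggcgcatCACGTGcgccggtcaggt
Lamp1: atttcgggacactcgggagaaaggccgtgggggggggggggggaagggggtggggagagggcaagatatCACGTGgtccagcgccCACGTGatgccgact

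Among the tested members with a promoter in the table, 11 of the 12 with an E-box fell in B16-F1R2, with a median log2 fold change of -0.65. Of the 22 without one, 16 fell, with a median of -0.29. Both counts stand beside 27.2% of all tested genes. The exception with an E-box was Ctsl, whose match spans positions -236 to -231 from the start. The 5 genes with the CLEAR form were all lower, by log2 fold changes of -0.46 to -1.84, with a median of -0.66. Of the 29 without it, 22 fell, with a median of -0.55. These are descriptions of small sets of genes, not tests.

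**Figure D2:**
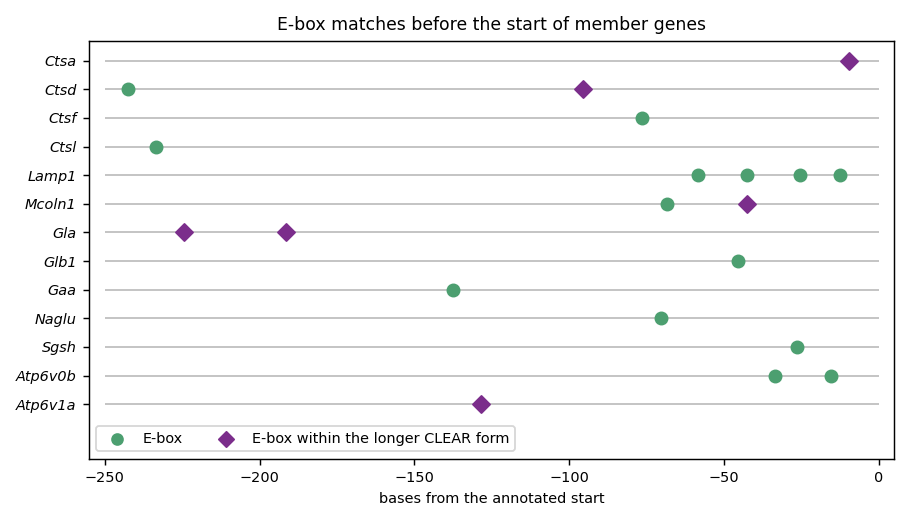
Place of each E-box match in the 250 bases before the annotated start of the 13 genes that have one, with diamonds where the match lies within the longer CLEAR form. Lamp1 has 4 matches, all within 61 bases of the start, and Gla has 2 matches of the CLEAR form.

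Among the acid proteases, 5 of 8 tested genes fell in B16-F1R2 (62.5%, against 27.2% of all tested genes) and 1 rose (12.5%, against 28.2%). Cathepsin D (Ctsd), the main aspartic protease of the lysosome, stood at 1001 and 994 FPKM in B16-F1, at 506 and 499 in B16-F1R2 and at 558 and 536 in B16-F1R2L. It was the most abundant protease of the list, and in B16-F1R2 it fell by 49.6% (log2 fold change -0.99 ± 0.045 SE, adjusted p = 1.33e-05). Tripeptidyl peptidase 1 (Tpp1), which removes tripeptides from protein ends, stood at 80.5 and 78.7 FPKM in B16-F1, at 38.9 and 44.0 in B16-F1R2 and at 44.3 and 46.2 in B16-F1R2L. Its fall of 0.94 on the log2 scale (-0.94 ± 0.066) was close to that of Ctsd. Cathepsin Z (Ctsz), a carboxypeptidase, stood at 379 and 389 FPKM in B16-F1, at 264 and 263 in B16-F1R2 and at 240.4 and 237 in B16-F1R2L, with log2 fold changes of -0.55 ± 0.039 and -0.69 ± 0.039. Cathepsin A (Ctsa), which stabilises Glb1 and Neu1, fell by 27.5% and 22.1% in the 2 lines, and the cysteine protease cathepsin B (Ctsb) by 21.1% and 10.5%. The fall of Ctsb in B16-F1R2L was no longer called under 6 of 17 alternative settings. It went down to -0.03 on the log2 scale (adjusted p = 0.63) by quantile normalization, and was also lost without either B16-F1 library or without replicate 1 of B16-F1R2L (adjusted p of 0.061 to 0.098).

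Cathepsin H (Ctsh), a cysteine protease that acts mainly as an aminopeptidase, moved the other way. It stood at 3.20 and 3.36 FPKM in B16-F1, at 9.61 and 9.21 in B16-F1R2 and at 11.5 and 11.4 in B16-F1R2L. All 4 libraries of the metastatic lines lay above both of B16-F1, with a 2.81-fold rise in B16-F1R2 (log2 fold change 1.49 ± 0.069, adjusted p = 1.43e-05) and a 3.42-fold rise in B16-F1R2L. Even at its highest, its level was far under that of Ctsd. Cathepsin L (Ctsl), a broad endopeptidase, showed overlapping libraries at 90.2 to 99.9 FPKM and was not called in any comparison (log2 fold change -0.03 ± 0.053 in B16-F1R2). Cathepsin K (Ctsk), known from osteoclasts, was low at 1.82 to 3.20 FPKM and was not called either.

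Membrane proteins held the steepest fall of the list. Mcoln1 (TRPML1), the cation channel that releases calcium from the lysosome, stood at 43.4 and 38.8 FPKM in B16-F1, at 11.1 and 11.8 in B16-F1R2 and at 15.2 and 16.02 in B16-F1R2L. The gene lies on chromosome 8 at 3500457 to 3515232 of NCBIM37, the assembly that mm9 names. Its level fell by 72.0% in B16-F1R2 (log2 fold change -1.84 ± 0.072, adjusted p = 7.46e-06) and by 61.9% in B16-F1R2L. Npc1, the membrane protein that exports cholesterol from the lysosome, stood at 28.9 and 28.5 FPKM in B16-F1, at 13.97 and 14.43 in B16-F1R2 and at 18.0 and 18.4 in B16-F1R2L. Its soluble partner Npc2 stood at 83.1 and 83.6, 57.7 and 56.5, and 53.0 and 55.1 FPKM in the same order of lines. Both partners fell, with log2 fold changes of -1.01 ± 0.049 and -0.65 ± 0.049 for Npc1 and of -0.55 ± 0.042 and -0.62 ± 0.042 for Npc2.

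The structural glycoproteins of the membrane changed less than the channel. Lamp1, a main glycoprotein of the lysosomal membrane, stood at 507 and 524 FPKM in B16-F1, at 339 and 332 in B16-F1R2 and at 354 and 353 in B16-F1R2L, a fall of 34.9% and 31.4%. Its relative Lamp2 fell by 13.2% and 12.1% (log2 fold changes -0.20 ± 0.043 and -0.19 ± 0.043), and lost the call under 2 and 4 of 17 alternative settings. By quantile normalization its log2 fold changes were -0.13 and -0.05 (adjusted p = 0.0897 and 0.479). The other losses included the fits without replicate 1 of B16-F1 (adjusted p = 0.0538 and 0.0688) and, in B16-F1R2L, without replicate 2 of B16-F1 (adjusted p = 0.0557). Scarb2 (LIMP-2), the receptor that carries glucocerebrosidase to the lysosome, stood at 25.3 and 25.1 FPKM in B16-F1, at 23.5 and 22.8 in B16-F1R2 and at 29.1 and 29.4 in B16-F1R2L. It was not called in B16-F1R2 (adjusted p = 0.057) and rose by 15.9% in B16-F1R2L (adjusted p = 0.0075), a call that was lost without replicate 2 of B16-F1 (adjusted p = 0.0506). Cd68, a glycoprotein typical of macrophages, was at 1.02 and 1.76 FPKM in B16-F1, at 0.983 and 1.89 in B16-F1R2 and at 1.08 and 2.67 in B16-F1R2L. Its 2 libraries of a line differed more than the lines did, and it was not called (log2 fold changes 0.02 ± 0.49 and 0.32 ± 0.49).

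**Figure D3:**
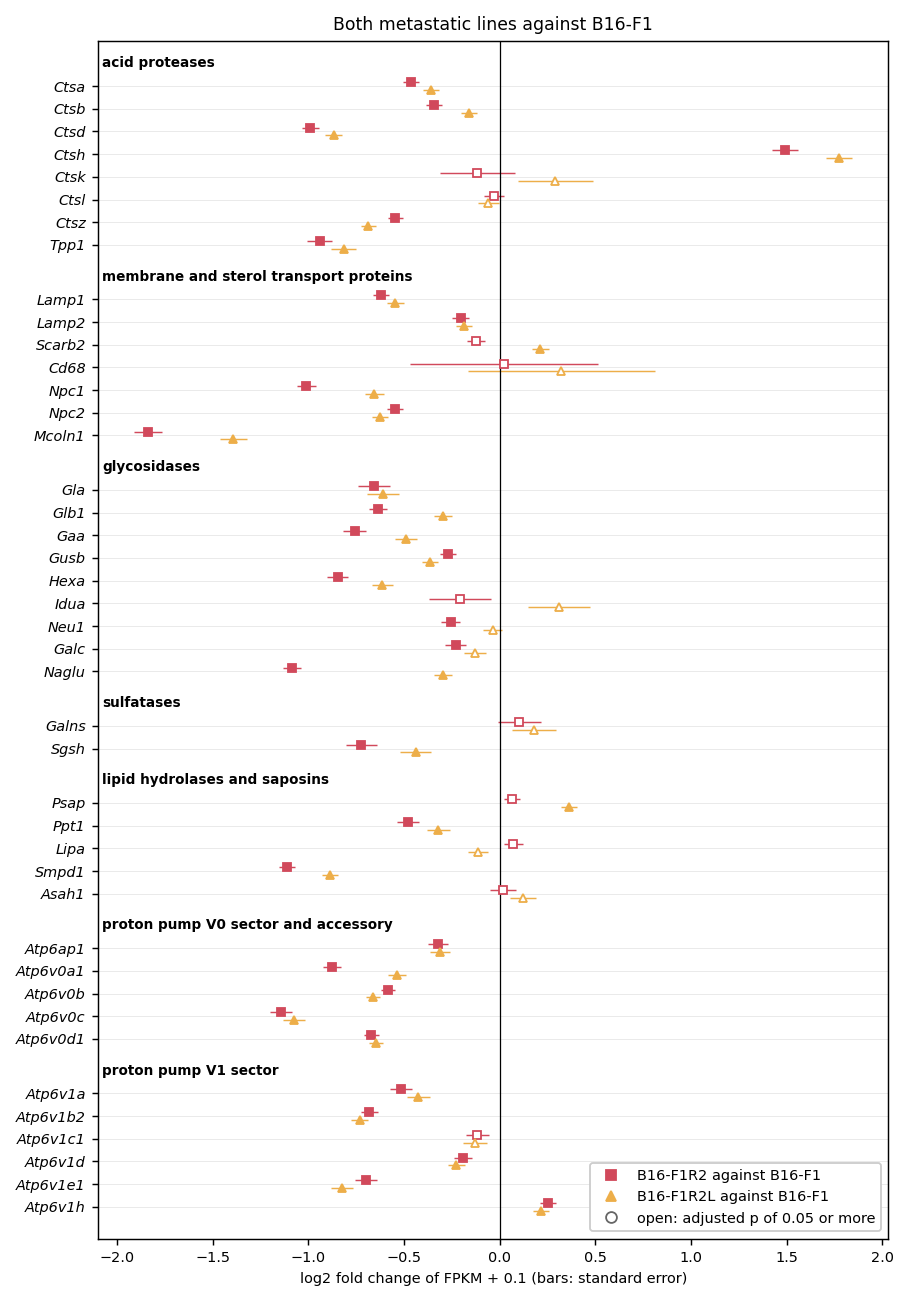
Log2 fold change of FPKM + 0.1 against B16-F1 for the 42 tested genes, by role, with squares for B16-F1R2, triangles for B16-F1R2L, bars for the standard error and open symbols where the adjusted p was 0.05 or more. Most symbols lie left of 0, from -1.84 (Mcoln1 in B16-F1R2) upward, and Ctsh lies far to the right in both lines.

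Of the 9 glycosidases, 8 fell in B16-F1R2 (88.9%, against 27.2% of all tested genes), 6 fell in B16-F1R2L (66.7%, against 27.1%) and none rose (against 28.2% and 29.5%). Naglu, the alpha-N-acetylglucosaminidase that trims heparan sulfate, stood at 126 and 128 FPKM in B16-F1, at 62.0 and 57.8 in B16-F1R2 and at 103 and 104 in B16-F1R2L. It fell by 52.9% in B16-F1R2 (log2 fold change -1.09 ± 0.047, adjusted p = 1.05e-05), and by 18.6% in B16-F1R2L. Hexa, the alpha subunit of beta-hexosaminidase, stood at 263 and 275 FPKM in B16-F1, at 156 and 143 in B16-F1R2 and at 174 and 178 in B16-F1R2L. Gaa, the acid alpha-glucosidase that degrades glycogen, stood at 81.7 and 83.4, 47.9 and 49.7, and 61.9 and 55.8 FPKM in that order. In B16-F1R2 Hexa fell by 44.4% and Gaa fell by 40.8%. Glb1, the acid beta-galactosidase, stood at 39.3 and 38.4 FPKM in B16-F1, at 24.3 and 25.7 in B16-F1R2 and at 31.4 and 31.9 in B16-F1R2L. Gla, the alpha-galactosidase of globotriaosylceramide, stood at 6.32 and 6.71, 4.24 and 3.96, and 4.18 and 4.29 FPKM. For both galactosidases the libraries of B16-F1 lay above all others, with log2 fold changes of -0.64 ± 0.048 and -0.66 ± 0.084 in B16-F1R2.

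Smaller falls were seen for beta-glucuronidase (Gusb, 17% in B16-F1R2 and 22.2% for B16-F1R2L), the sialidase Neu1 (16.3% in B16-F1R2, adjusted p = 0.0058) and galactosylceramidase (Galc, 14.7% in B16-F1R2, adjusted p = 0.0138). Neu1 and Galc were not called in B16-F1R2L, with log2 fold changes of -0.04 ± 0.051 and -0.13 ± 0.056, and the direct comparison of the metastatic lines called Neu1 and not Galc. Without any 1 of 3 libraries (either of B16-F1, or replicate 1 of B16-F1R2), the call of Galc in B16-F1R2 was lost, at adjusted p of 0.054 to 0.081. Idua, the iduronidase of heparan and dermatan sulfate, was low at 2.93 and 2.42 FPKM in B16-F1, at 2.00 and 2.63 in B16-F1R2 and at 3.31 and 3.33 in B16-F1R2L. It was not called against B16-F1 in either line (log2 fold changes -0.21 ± 0.162 and 0.31 ± 0.162), and the second value turned negative under quantile normalization. The first ranged from -0.44 by quantile normalization to -0.02 without replicate 1 of B16-F1R2, and was -0.08 without replicate 1 of B16-F1, -0.34 without replicate 2 of B16-F1 and -0.40 without replicate 2 of B16-F1R2.

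The 2 sulfatases differed. Sgsh, the sulfamidase of heparan sulfate, stood at 16.7 and 16.5 FPKM in B16-F1, at 9.96 and 10.0 in B16-F1R2 and at 13.2 and 11.3 in B16-F1R2L, so that it fell by 39.5% and 26.1%. Galns, which removes sulfate from keratan and chondroitin sulfate, stood at 8.08 and 8.41, 8.74 and 8.99, and 10.54 and 8.29 FPKM and was not called (log2 fold changes 0.10 ± 0.114 and 0.18 ± 0.114). Without replicate 2 of B16-F1R2L the second value was 0.35 and was called (adjusted p = 0.0185). In NCBIM37, Sgsh and Gaa lie 57970 bases apart on chromosome 11.

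The lipid hydrolases split into genes that fell and genes that were not called in B16-F1R2. Smpd1, the acid sphingomyelinase, stood at 63.1 and 62.7 FPKM in B16-F1, at 29.1 and 29 in B16-F1R2 and at 33.4 and 34.7 in B16-F1R2L. It fell by 53.8% in B16-F1R2 (log2 fold change -1.11 ± 0.042, adjusted p = 6.75e-06) and by 45.8% in B16-F1R2L, the steepest change of this class. The palmitoyl-protein thioesterase Ppt1 fell as well (log2 fold changes -0.48 ± 0.059 and -0.32 ± 0.059). Acid ceramidase (Asah1), which acts on the ceramide that sphingomyelinase releases, stood at 78.6 and 77.2 FPKM in B16-F1, at 79.9 and 77.8 in B16-F1R2 and at 79.0 and 90.9 in B16-F1R2L and was not called (0.02 ± 0.069 and 0.12 ± 0.069). Lysosomal acid lipase (Lipa), which frees cholesterol from its esters, stood at 75.03 and 72.8, 75.04 and 80.5, and 67.0 and 69.9 FPKM and was not called against B16-F1 (0.07 ± 0.051 and -0.11 ± 0.051). With GC content and gene length removed the second value was -0.18 and was called (adjusted p = 0.00614), and by quantile normalization it was 0.01. Psap, the precursor of the saposins that present sphingolipids to their enzymes, stood at 293 and 295.3 FPKM in B16-F1, at 302 and 313 in B16-F1R2 and at 382 and 375 in B16-F1R2L. It was not called in B16-F1R2 (adjusted p = 0.221) and rose by 28.7% in B16-F1R2L (adjusted p = 0.00056).

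All 5 pump genes of the V0 sector and its accessory protein fell in both lines, against 27.2% and 27.1% of all tested genes. Atp6v0c encodes the proteolipid of the rotating ring and was the most abundant gene of the list, at 1388 and 1441 FPKM in B16-F1, at 632 and 649.6 in B16-F1R2 and at 699 and 646 in B16-F1R2L. That it fell by 54.7% in B16-F1R2 (log2 fold change -1.14 ± 0.057) is uncertain as a value of this gene, since 67.1% of the 50-base stretches of its transcripts also occur elsewhere in the genome and reads could be placed at up to 20 positions. Without Atp6v0c, 29 members fell in B16-F1R2 and 27 fell in B16-F1R2L, and summed FPKM of the other 10 pump genes stood at 1702 and 1725 in B16-F1, at 1211 and 1178 in B16-F1R2 and at 1150.0 and 1185 in B16-F1R2L. Atp6v0b, the second ring subunit, stood at 289 and 293 FPKM in B16-F1, at 194 and 195 in B16-F1R2 and at 184 and 184 in B16-F1R2L. Atp6v0d1, which joins the ring to the central stalk, stood at 164 and 164, 104 and 103, and 103 and 106 FPKM. Both had B16-F1 libraries clearly above the others, with log2 fold changes of -0.58 ± 0.037 and -0.67 ± 0.038 in B16-F1R2.

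Atp6v0a1, a subunit that forms the proton path together with the ring, stood at 82.6 and 82.7 FPKM in B16-F1, at 44.2 and 45.9 in B16-F1R2 and at 55.4 and 58.7 in B16-F1R2L. It fell by 45.5% and 31.0%, and it is the neighbour of Naglu, 6292 bases away on the same strand of chromosome 11 in NCBIM37. The accessory protein Atp6ap1 stood at 100 and 102 FPKM in B16-F1, at 80.4 and 81.3 in B16-F1R2 and at 78.0 and 84.9 in B16-F1R2L, a fall of 20.0% and 19.4%.

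Of the 6 V1 genes, 4 fell (66.7%, against 27.2% and 27.1% of all tested genes) and 1 rose (16.7%, against 28.2% and 29.5%) in each line. Atp6v1e1, a subunit of the outer stalk, stood at 509 and 536 FPKM in B16-F1, at 337 and 307 in B16-F1R2 and at 295.2 and 294.8 in B16-F1R2L (log2 fold changes -0.70 ± 0.058 and -0.82 ± 0.058). Atp6v1b2, an ATP-binding subunit, stood at 169 and 168, 107 and 103, and 99.4 and 104 FPKM. Atp6v1a, the catalytic subunit, stood at 103 and 99.1, 67.2 and 74.3, and 73.9 and 76.6 FPKM. In B16-F1R2 the catalytic subunit fell by 30% and the ATP-binding subunit fell by 37.7%. Atp6v1d, the rotor of the central stalk, fell by 12.3% and 14.5%, and the call in B16-F1R2 was lost without either B16-F1 library or without replicate 2 of B16-F1R2 (adjusted p of 0.057 to 0.083), and that in B16-F1R2L without replicate 1 of B16-F1 (adjusted p = 0.0502) and after rescaling to a common sum (log2 fold change -0.12, adjusted p = 0.0671). Atp6v1c1, which takes part in joining V1 to V0, was not called (-0.12 ± 0.062 and -0.13 ± 0.062).

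Atp6v1h, a regulatory subunit of V1, was the pump gene of the list that rose. It stood at 68.3 and 66.0 FPKM in B16-F1, at 80.7 and 79.4 in B16-F1R2 and at 76.8 and 79.2 in B16-F1R2L, so that the 4 metastatic libraries lay above the 2 of B16-F1. The rise was small, at 19.2% (log2 fold change 0.25 ± 0.042, adjusted p = 0.0027) and 16.1% (0.22 ± 0.042, adjusted p = 0.0053). After the dependence on GC content and gene length was removed, the first value was 0.10 (adjusted p = 0.0422), and the second was 0.06 and was not called (adjusted p = 0.16).

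**Figure D4:**
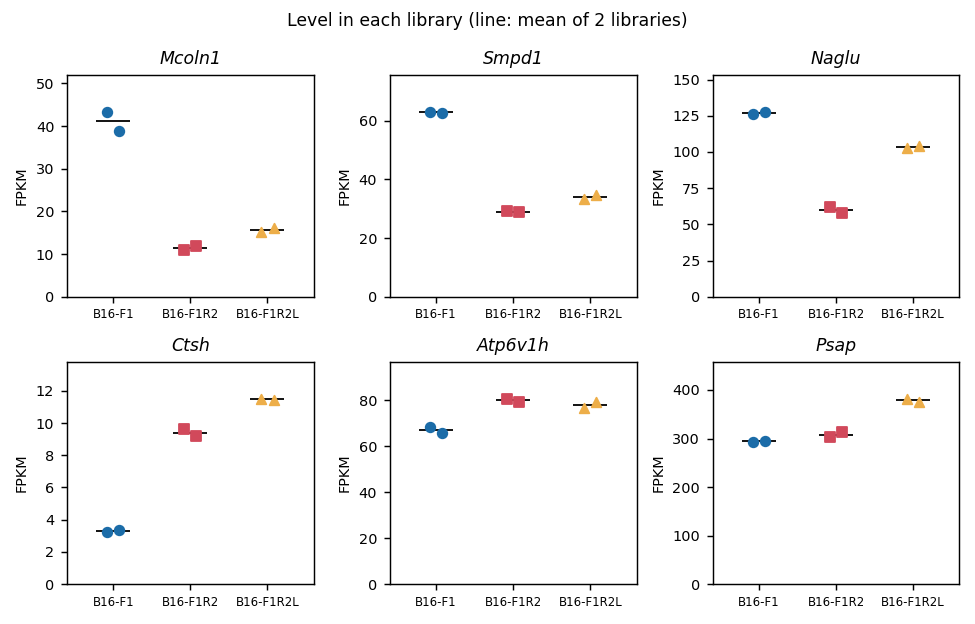
FPKM in each library for 6 genes, with a horizontal line at the mean of the 2 libraries of a line and axes that start at 0. Mcoln1 and Smpd1 fell in both metastatic lines, Naglu lay between its B16-F1 and B16-F1R2 levels in B16-F1R2L, Ctsh and Atp6v1h rose in both lines, and Psap rose in B16-F1R2L.

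B16-F1R2L was also compared with B16-F1R2 directly. Here 14 of the 42 genes were higher in B16-F1R2L, against 12.1% of all tested genes, and 2 were lower, against 10.5% of all, with a median log2 fold change of 0.10 beside 0.02 over all genes. The 14 were the proteases Ctsb and Ctsh, the membrane proteins Scarb2, Npc1 and Mcoln1, the glycosidases Glb1, Gaa, Hexa, Neu1 and Naglu, the sulfatase Sgsh, the lipid genes Psap and Smpd1, and the pump subunit Atp6v0a1. Naglu differed most, by 72.7% (log2 fold change 0.79 ± 0.047, adjusted p = 0.00089), and Mcoln1 was 36.2% higher (0.45 ± 0.072, adjusted p = 0.0115). Npc1, Glb1, Atp6v0a1 and Scarb2 were 26.2% to 28% higher, and Psap 23.0%. Ctsz and Lipa were lower (log2 fold changes -0.14 ± 0.039 and -0.18 ± 0.051, adjusted p = 0.0481 and 0.0468), and these 2 calls were kept under 4 and 5 of 17 alternative settings and lost with any library left out.

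These calls were less firm than those against B16-F1. Of the 14 genes, 8 (Naglu, Psap, Scarb2, Npc1, Atp6v0a1, Glb1, Mcoln1 and Smpd1) kept their call under at least 14 of 17 alternative settings, and the other 6 under at most 9. These 17 do not include a minimum size of change, and none of the 14 was called where a log2 fold change of 1 or more was required. Without replicate 1 of B16-F1R2 the count was 4, without replicate 2 of B16-F1R2 or of B16-F1R2L it was 7, and without either B16-F1 library it was 8. The count over all genes, 1378 with every library, was then 297, 628 or 329, and 880 or 889, in the same order. When FPKM were rescaled to a common sum, the median of all genes moved to 0.13, and 19 members were higher and none lower. Over all genes, 2079 of 2568 calls were then higher. Relative to the median of all genes, the median of the members was 0.08 higher both as deposited and rescaled, and 0.18 higher after quantile normalization. With the same rescaling the comparison of B16-F1R2L with B16-F1 gave 24 lower and 4 higher members. Over all genes, 4075 of 6118 calls in that comparison were higher. The median of the members was 0.36 below that of all genes, as before rescaling, and 0.24 below it after quantile normalization.

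**Figure D5:**
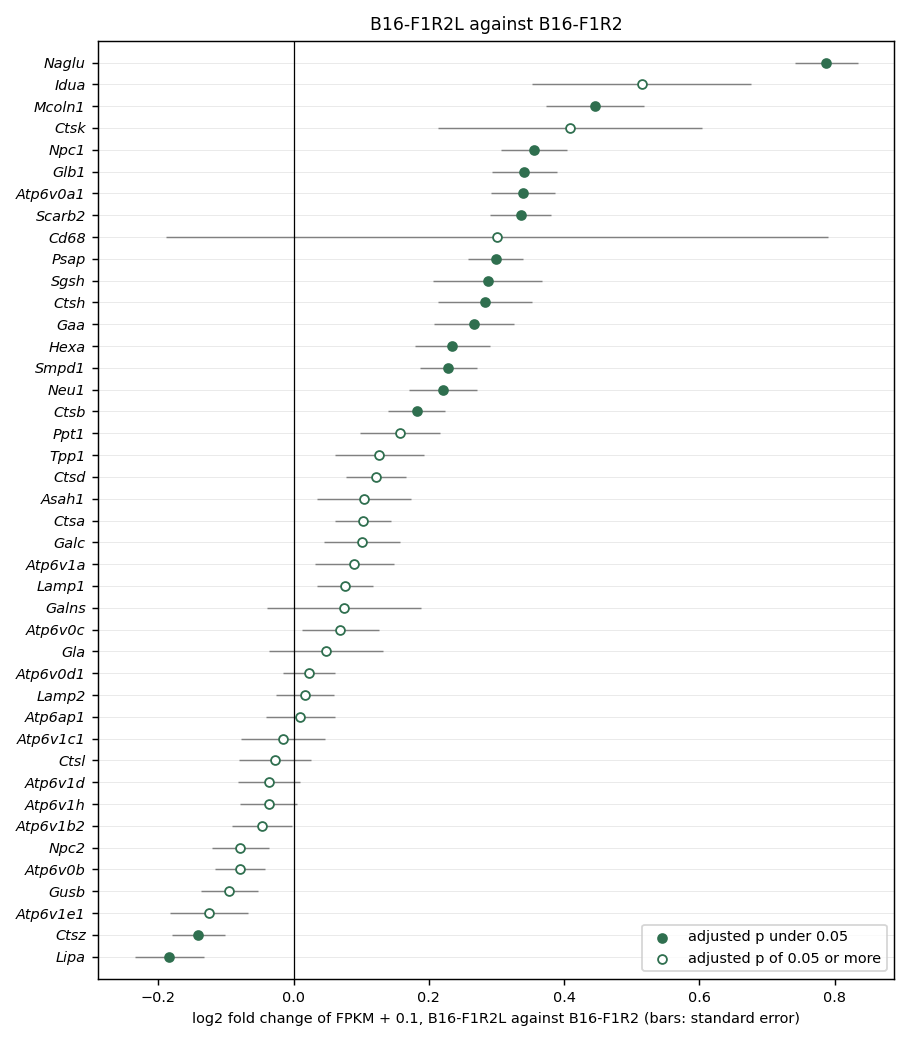
Log2 fold change of FPKM + 0.1 in B16-F1R2L against B16-F1R2 for the 42 tested genes in order of size, with bars for the standard error and open symbols where the adjusted p was 0.05 or more. Naglu stands at 0.79, apart from the next called gene, Mcoln1, at 0.45, and most pump genes lie near 0.

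Between the 2 metastatic lines 1 of the 11 pump members was called higher (Atp6v0a1, 9.09%, against 12.1% of all tested genes) and none lower (against 10.5%), so their share of calls was near the background. Their median log2 fold change was -0.015. The 9 glycosidases had 5 called higher and a median of 0.23, and the 7 membrane proteins 3 and a median of 0.30. Whether the classes differ from each other was not tested.

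The other subunits of the pump were looked up from a list of 14 genes, of which 8 were tested. In B16-F1R2 5 of them fell (62.5%, against 27.2% of all tested genes) and 2 rose (25%, against 28.2%), which gives 14 lower and 3 higher among all 19 tested pump genes. The accessory protein Atp6ap2, also known as the prorenin receptor, stood at 51.2 and 49.3 FPKM in B16-F1, at 29.3 and 31.9 in B16-F1R2 and at 30.8 and 32.7 in B16-F1R2L. Atp6v0e, a small V0 subunit, stood at 220.1 and 227, 137 and 136, and 123 and 125 FPKM, with a further small fall between the metastatic lines (log2 fold change -0.14 ± 0.039). Both genes called higher were alternative forms of the a subunit. Atp6v0a4, the form of kidney and ear, passed the filter only through the metastatic lines, so its call is no support, and was low at 0.795 and 0.481 FPKM in B16-F1, at 1.38 and 1.12 in B16-F1R2 and at 1.77 and 1.45 in B16-F1R2L. Tcirg1, the form of osteoclasts, named after its values were seen, stood at 75.3 and 80.6, 101 and 104, and 119 and 109 FPKM (log2 fold changes 0.40 ± 0.058 and 0.55 ± 0.058). So Atp6v0a1 fell, Atp6v0a2 was not called (0.02 ± 0.057 in B16-F1R2), and Tcirg1 rose.

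Further lysosomal hydrolases showed falls as well as rises. Of 24 tested, 13 fell (54.2%, against 27.2% of all tested genes) and 3 rose (12.5%, against 28.2%) in B16-F1R2. In B16-F1R2L 10 fell (41.7%, against 27.1%) and 5 rose (20.8%, against 29.5%). The falls in both lines include Ctso, named after its values were seen, which would not have passed the filter without B16-F1, so its calls are no support. It stood at 1.46 and 1.92 FPKM in B16-F1, at 0.514 and 0.429 in B16-F1R2 and at 0.540 and 1.07 in B16-F1R2L. Hgsnat, the acetyltransferase that acts on heparan sulfate next to Naglu and Sgsh, stood at 332 and 330.1 FPKM in B16-F1, at 66.1 and 66.3 in B16-F1R2 and at 54.8 and 55.3 in B16-F1R2L. That it fell by 80% (log2 fold change -2.32 ± 0.037, adjusted p = 2.42e-07) is a steeper change than that of any of the 42 members. Of the 3 that rose in B16-F1R2, Acp5, an acid phosphatase, passed the filter only through the metastatic lines: it was listed at 0 in both B16-F1 libraries and stood at 1.36 and 1.152 FPKM in B16-F1R2 and at 1.83 and 1.05 in B16-F1R2L.

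Among 20 tested other lysosomal membrane proteins, 11 fell (55%, against 27.2% of all tested genes) and 5 rose (25%, against 28.2%) in B16-F1R2, with a median log2 fold change of -0.22. In B16-F1R2L 9 fell (45%, against 27.1%) and 5 rose (25%, against 29.5%), with a median of -0.045. The shares that rose were near the background, and they include Slc11a1 and Abcb9, which passed the filter only through the metastatic lines, so that their calls are no support. Slc11a1, a metal transporter known from macrophages, stood at 0.131 and 0.0459 FPKM in B16-F1, at 3.81 and 4.08 in B16-F1R2 and at 5.89 and 6.06 in B16-F1R2L. Of the macrophage markers 9 of 10 stayed under 1 FPKM in every library, while Lyz2, which passed the filter in the same way, went from 0.170 and 0.625 FPKM to 0.916 and 1.18 in B16-F1R2 and to 2.052 and 1.504 in B16-F1R2L, and their part in the level of Slc11a1 was not tested. Abcb9, a peptide transporter of the lysosome, went from 0.346 and 0.428 FPKM to 3.06 and 2.66 in B16-F1R2 and to 3.22 and 3.10 in B16-F1R2L. Slc17a5, the sialic acid exporter, stood at 7.80 and 7.11 FPKM in B16-F1, at 5.50 and 5.72 in B16-F1R2 and at 7.14 and 7.70 in B16-F1R2L. The mucolipin family, named after its values were seen, moved in both directions. Mcoln2, like Mcoln1, fell in B16-F1R2 (log2 fold change -1.05 ± 0.106), while Mcoln3 rose from B16-F1 levels of 6.55 and 6.91 FPKM to 27.0 and 25.9 in B16-F1R2 and to 31.1 and 34.4 in B16-F1R2L (1.96 ± 0.068 and 2.27 ± 0.068). Cln3, mutated in a juvenile storage disease and likewise named afterwards, fell from 4.95 and 5.64 FPKM to 1.09 and 1.16 in B16-F1R2 (-2.14 ± 0.172).

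New hydrolases are tagged with mannose 6-phosphate and carried to the lysosome by sorting receptors. Of 12 such genes, 7 fell in each metastatic line (58.3%, against 27.2% and 27.1% of all tested genes), and none rose in either (against 28.2% and 29.5%). Sort1 (sortilin), a sorting receptor, stood at 77.5 and 79.8 FPKM in B16-F1, at 32.5 and 33.6 in B16-F1R2 and at 33.5 and 36.7 in B16-F1R2L, a fall of 57.9% and 55.4%. Nagpa, the enzyme that uncovers the mannose 6-phosphate tag, stood at 19.3 and 17.8, 11.02 and 12.6, and 9.76 and 10.8 FPKM. Both mannose 6-phosphate receptors, M6pr and Igf2r, fell by 25.1% and 22.2% in B16-F1R2, while the retromer subunits Vps35, Vps26a and Vps29, which return receptors from endosomes, were not called.

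The factors that bind E-boxes of lysosomal genes, together with regulators of their release by mTORC1 at the lysosome, made up 18 tested genes, of which 7 fell (38.9%, against 27.2% of all tested genes) and 2 rose (11.1%, against 28.2%) in B16-F1R2. In B16-F1R2L 6 fell (33.3%, against 27.1%) and 4 rose (22.2%, against 29.5%). Mitf, the melanocyte member of the family, stood at 92.3 and 88.7 FPKM in B16-F1, at 79.5 and 83.6 in B16-F1R2 and at 112 and 127 in B16-F1R2L. It was not called in B16-F1R2 (log2 fold change -0.15 ± 0.068, adjusted p = 0.106), rose in B16-F1R2L against B16-F1 (0.40 ± 0.068) and was 46.1% higher in B16-F1R2L than in B16-F1R2. Tfe3 fell in both lines, by 29.6% and 28.7%, and Tfeb in B16-F1R2 alone passed the test, at -0.25 ± 0.076 there and -0.04 ± 0.076 in B16-F1R2L, while the direct comparison of the metastatic lines was not called (adjusted p = 0.0941). Flcn (folliculin), which controls these factors at the lysosome, stood at 39.1 and 40.3, 27.6 and 26.3, and 27.2 and 25.3 FPKM. Rragb, a small GTPase of the same complex, rose from 1.61 and 1.21 FPKM to 2.50 and 2.92 in B16-F1R2 and to 2.16 and 2.26 in B16-F1R2L. RNA levels do not show the localisation of these factors.

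Of 5 tested inhibitors of cathepsins, 2 fell in each line, and none rose. With 27.2% and 27.1% of all tested genes lower in the 2 lines, a count of 2 of 5 is near the background. Cst6 (cystatin M) stood at 12.2 and 11.2 FPKM in B16-F1, at 9.26 and 9.43 in B16-F1R2 and at 10.3 and 9.09 in B16-F1R2L, and Serpinb6a at 86.7 and 85.4, 67.9 and 67.7, and 67.3 and 70.3 FPKM. Cst3 (cystatin C), the most abundant of them, stood at 311 and 321, 358 and 320.1, and 297 and 275 FPKM and was not called against B16-F1, while its level fell between the metastatic lines (log2 fold change -0.24 ± 0.068, adjusted p = 0.0485).

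Autophagy delivers cell contents to the lysosome. Of 19 genes of this route, 10 fell (52.6%, against 27.2% of all tested genes) and 1 rose (5.26%, against 28.2%) in B16-F1R2. In B16-F1R2L 10 fell (52.6%, against 27.1%) and 3 rose (15.8%, against 29.5%). Gabarapl1, a ubiquitin-like protein of the autophagosome membrane, stood at 90.2 and 89.5 FPKM in B16-F1, at 55.2 and 52.8 in B16-F1R2 and at 62.0 and 60.7 in B16-F1R2L, and Atg7, which activates such proteins, at 18.4 and 18.6, 11.7 and 11.9, and 13.2 and 13.6 FPKM. Wipi2, a lipid-binding protein of forming autophagosomes, stood at 23.7 and 24.4, 18.2 and 18.3, and 23.0 and 22.8 FPKM. The gene that rose in B16-F1R2 was the cargo receptor Sqstm1 (p62), named here as the single rise, at 735 and 742 FPKM in B16-F1, at 1073 and 1021 in B16-F1R2 and at 866 and 807 in B16-F1R2L. Median log2 fold changes in B16-F1R2 were -0.54 for the other pump subunits, -0.33 for the sorting genes and -0.29 for the further hydrolases. They were -0.28 for the cathepsin inhibitors, -0.26 for the autophagy genes and -0.22 for the other membrane proteins. For the E-box factors and their regulators the median was -0.12. These stand beside -0.50 for the members and 0.005 for all genes.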

How the data were processed

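Polyadenylated RNA of 3 mouse melanoma lines, 2 libraries each, was made into stranded libraries and sequenced by the authors to 50 bases from 1 end, followed by alignment with TopHat 2.0.10 to NCBI37/mm9, with up to 20 positions kept per read. The authors deposited FPKM values in 1 table, without pooling. The submitters' processing notes name Cuffnorm without a role. The annotation and the use of strand in counting are not given in the sources used here, so Ctsd, which overlaps another gene on its own strand, and members that overlap a gene on the opposite strand carry that uncertainty. Depth was estimated from the lowest FPKM at 12200000 to 14700000 reads per library, which is an estimate, and no interval that needs counts was computed.

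From the FPKM, log2(FPKM + 0.1) was computed, and 11379 of 23951 genes were tested, those that reached 1 FPKM in 2 or more libraries. A limma 3.58.1 fit (R 4.3.3, trend on) covered all 6 libraries, adjusted over all tested genes by Benjamini-Hochberg at 0.05, without a replicate block. The authors used DESeq2, and count models do not apply to FPKM and were left out. The steps were tested on simulated data. Members and gene lists were chosen with earlier results of these data known. Values in every library were given for the members with the largest and smallest change of their class, those with a called log2 fold change of at least 0.5, and those that failed the filter. From each further list, the 2 genes changed most in B16-F1R2 and the 1 changed most between the metastatic lines were named. Library values of Scarb2, Psap and Asah1, and Atp6v0a2, M6pr, Igf2r, the retromer subunits, Tfe3, Tfeb and the genes said to be so in the text were picked with their values in view. A gene that this rule names among the further hydrolases is not reported here. The alternatives comprised other scalings, pseudocounts of 1 and 0.01, other filters, no trend, 4 libraries in the fit, a replicate block, a log2 fold change of at least 1, removal of GC content and gene length (MASS 7.3.60.0.1), each library left out and, added after seeing the data, counts without Atp6v0c. Stretches of 50 bases were matched to NCBIM37, and promoters came from RefSeq (GRCm38.p6). Summaries and plots were made in Python 3.11.15 (matplotlib 3.10.9, pandas 2.3.3).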

Additional observations from a re-analysis of the deposited data

Results flagged for a closer look

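Among the members and the genes that the rule names from the further lists, 8 results stood out because a gene differed between the 2 metastatic lines by the direct test, while it was called against B16-F1 in 1 of them only or differed by at least 0.5 on the log2 scale. Called below B16-F1 in B16-F1R2 alone, with a higher level in B16-F1R2L, were Neu1 (log2 fold change between the metastatic lines 0.22), Slc17a5 (0.40) and Wipi2 (0.33). Those called higher than B16-F1 in B16-F1R2L alone were Scarb2 (0.34), Psap (0.30) and Mitf (0.55). Naglu (0.79) and the melanocyte enzyme Tyr (0.71) were lower than B16-F1 in both lines and less so in B16-F1R2L. No explanation was tested. With 2 libraries per line, no library could be examined for standing apart from its group.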

How the results depend on the processing

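The fall of the members against B16-F1 kept its direction under every alternative run. Requiring a log2 fold change of 1 or more left 1 member higher and 5 lower in B16-F1R2. It left 1 and 2 in B16-F1R2L, and 0 and 0 between the metastatic lines. Over all genes, 819 of 1147 calls in B16-F1R2 and 957 of 1216 in B16-F1R2L were then higher. Between the metastatic lines 116 of 140 were. The lower members in both lines include Atp6v0c (-1.14 and -1.07), whose value is uncertain because of shared sequence. Whether so few lower members exceed the background was not tested. The median in B16-F1R2 was -0.47 without a filter, -0.55 with a filter of 5 FPKM, -0.52 with GC content and gene length removed and -0.46 to -0.52 with a library left out. The median in B16-F1R2L was -0.24 after rescaling and -0.29 after quantile normalization. Between the metastatic lines, 6 members were higher without a filter, 9 without a trend, 8 with 4 libraries and 4 to 10 with a library left out. The 2 lower members became 1 with GC content and gene length removed and 0 under rescaling, quantile normalization, no filter, no trend, 4 libraries, the replicate block and any library left out. Over all genes, 1378 were higher in the main fit, 381 without a filter, 1091 without a trend and 874 with 4 libraries. The median of the members was 0.21 after rescaling and 0.17 after quantile normalization. For these shifts the cause was not tested. Among uncalled members, single values were recomputed against B16-F1 for Cd68, Idua, Galns and Lipa. Those that reversed were Cd68 in B16-F1R2 (-0.50 by quantile normalization, -0.058 with GC content and gene length removed, -0.344 and -0.417 within a range of -0.417 to 0.462 with a library left out), Cd68 in B16-F1R2L (-0.47 by quantile normalization, -0.043 and -0.294 within a range of -0.294 to 0.940 with a library left out), and by quantile normalization Idua (-0.063) and Lipa (0.013) in B16-F1R2L. Of these 4, a call was gained by Galns in B16-F1R2L (0.35) without replicate 2 of B16-F1R2L and by Lipa in B16-F1R2L (-0.18) with GC content and gene length removed. Some counts also grew. Lower members reached at most 33 in B16-F1R2 and 32 in B16-F1R2L, with GC content and gene length removed. In that fit, 3025 of 6357 and 3021 of 6343 calls over all genes were higher. Higher members reached at most 3 and 5 in the 2 lines. Between the metastatic lines they reached 19 by rescaling, 18 with GC content and gene length removed and 15 by quantile normalization. Over all genes, 2079, 1716 and 1110 were higher under these settings, so the background moved as well. Calls of single members were kept in 536 of 544 repeats in B16-F1R2, 529 of 544 in B16-F1R2L and 181 of 272 between the metastatic lines, a tally that leaves out the required log2 fold change of 1. Deviations of same-numbered libraries correlated at -0.10 to 0.08, so no pairing by number was seen over all genes. Whether same-numbered libraries share a batch cannot be told from 2 libraries per line. The replicate block gave 30 lower and 2 higher members in B16-F1R2, 28 and 4 for B16-F1R2L, and 12 higher and 0 lower between the metastatic lines. In the last comparison 1217 of 2321 calls over all genes were higher with the block. With a library left out, the lone sample of its line is assumed to vary like the others. Having 2 libraries per line limits all calls, and standard errors were wide for genes of a few FPKM such as Cd68 and Idua.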
